A study of Mus musculus with 17 samples.

Results

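The transcripts of 10 integrin subunit genes were followed in arteriolar smooth muscle cells (aSMCs) of the mouse brain, whole cerebral cortex and astrocytes. The genes were taken by symbol from a table of 21640 genes: the α subunits Itga1, Itga5, Itga6, Itga7, Itga8 and Itgav and the β subunits Itgb1, Itgb3, Itgb5 and Itgb8. All 10 passed the filter on low counts, which kept 14927 genes. The study asked which molecules allow axons to signal directly to aSMCs, the contractile cells that encircle brain arterioles, and bulk RNA sequencing was one of its assays. The aSMCs came from cerebral arterioles of mice in which CreER, a recombinase that tamoxifen activates, is driven by the smooth muscle actin promoter (SMACreER). There were 6 libraries of EGFP-positive cells sorted from SMACreER:Ai47 mice and 2 of tdTomato-positive cells sorted from SMACreER:Ai14 mice, where Ai47 and Ai14 are the Cre-dependent reporters. The 6 cortex libraries were homogenate labelled wild type, and the 3 astrocyte libraries were tdTomato-positive cells sorted from cortex of hGFAPCreER:Ai14 mice, in which the human GFAP promoter drives CreER. According to the study's methods, the Ai47 mice were adults given tamoxifen about a month before sorting, endothelial and blood cells carrying CD31 or CD45 were removed, and cortex was a fraction of dissociated tissue. For in vivo work in general, bulk sequencing included, the methods have tamoxifen given to adults at least a month before. They do not describe the astrocyte libraries. The study counts its aSMC and cortex samples as mice. It took cortex from the dissociated tissue that was then sorted, so by that account an aSMC and a cortex library may share a mouse. The labels instead give cortex as wild type and aSMCs as SMACreER carriers, so the 2 accounts differ and any pairing is unknown. The labels also do not say whether the Ai14 aSMC and astrocyte libraries came from separate mice. For those, p-values may measure technical spread.

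Integrins are the transmembrane receptors that tie a cell to its surrounding matrix. Each receptor pairs an α subunit, which largely sets what is bound, with a β subunit, whose short cytoplasmic tail recruits talin and kindlin and so reaches the actin cytoskeleton. In the vessel wall, α1β1 binds collagens, α6β1 and α7β1 bind laminins of the basement membrane, and α5β1, α8β1 and the αv integrins bind ligands with an arginine-glycine-aspartate sequence such as fibronectin, vitronectin and nephronectin. The integrin αvβ8, which in brain is best known from astrocytes and other neuroepithelial cells, activates latent TGF-β held on the matrix or on a cell surface, and its loss causes brain haemorrhage in mice.

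The 4 β genes differ in the coding sequence of that tail, and their order of abundance changed between groups. The last 150 coding bases before the stop codon are therefore shown 5′ to 3′, read from the GENCODE M21 principal transcript on GRCm38. Capitals mark in-frame codons for asparagine, proline, any residue and tyrosine, the NPxY motif that talin and other adaptors bind.
Itgb1: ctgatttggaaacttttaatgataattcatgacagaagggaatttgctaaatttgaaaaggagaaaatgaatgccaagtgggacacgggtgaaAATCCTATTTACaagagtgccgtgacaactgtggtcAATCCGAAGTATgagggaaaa
Itgb3: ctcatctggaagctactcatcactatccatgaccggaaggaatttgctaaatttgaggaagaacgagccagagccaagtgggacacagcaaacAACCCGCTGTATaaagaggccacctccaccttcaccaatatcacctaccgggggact
Itgb5: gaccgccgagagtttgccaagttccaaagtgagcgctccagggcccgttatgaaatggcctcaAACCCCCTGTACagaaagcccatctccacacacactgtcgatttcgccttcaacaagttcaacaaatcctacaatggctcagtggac
Itgb8: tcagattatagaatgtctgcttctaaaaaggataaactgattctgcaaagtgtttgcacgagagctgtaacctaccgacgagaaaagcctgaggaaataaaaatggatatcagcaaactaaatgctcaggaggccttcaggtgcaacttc
Itgb1 held 2 matches, Itgb3 and Itgb5 held 1 each, and Itgb8 held 0. Of 21464 mouse genes with a tail of this length, 84 (0.391%) held at least 1 match, so the motif is rare. The 4 stretches lie at chr8:128726100-128732085 (plus strand), chr11:104665546-104667142 (plus), chr16:33947825-33948749 (plus) and chr12:119163120-119163366 (minus), each across 2 exons. Gene positions below are likewise on GRCm38. Exons of Itga1, Itga7, Itga8 and Itgav overlap those of another annotated gene over 3.68%, 0.111%, 5.05% and 5.90% of their bases, so reads there cannot be assigned with certainty. The Itga1 overlap is with a gene on the same strand, which no strand setting resolves, and the other 3 are with genes on the opposite strand, for which the sources used here give no strand setting.

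Depth differed by group, with 41499087 to 53643624 counts in the Ai47 aSMC libraries, 14870507 and 14979228 in the Ai14 aSMC libraries, 5397905 to 7288036 in cortex and 4537137 to 7390630 in astrocytes. Mitochondrial genes took 0.214% to 0.559% of the Ai47 counts, 16.8% and 17.6% of the Ai14 counts, 35.7% to 72.9% in cortex and 10.7% to 12.5% in astrocytes. Library composition therefore differed between groups, and scaling matters. With the TMM scaling used here, the factors ran from 0.423 to 2.68, and levels are given as CPM (counts scaled by library size) after that scaling. The summed level of 6 smooth muscle markers was 4794 to 6517 CPM in Ai47 aSMCs and 7028 to 7547 CPM in Ai14 aSMCs, against 19.3 to 114 CPM in cortex. Of 6 pericyte markers, 4 (Vtn, Rgs5, Pdgfrb and Cspg4) were higher than cortex in both aSMC groups. Abcc9 was lower in Ai47 aSMCs (log2 difference -3.07) and not called in Ai14 aSMCs (-1.15), and Kcnj8 was called in neither. Ai47 aSMCs held 1531 to 2365 CPM over 5 fibroblast markers, most of it Col1a1 (mean 1739 CPM). Col1a2 was higher than cortex in both aSMC groups (114 and 97.4 CPM against 9.35 CPM), Dcn was not called and reached 19.1 CPM in 1 Ai47 library, and Lum and Pdgfra were at or near 0 in aSMCs. Of 7 astrocyte markers, the astrocyte libraries had 1 called higher than cortex (Gja1), 1 lower (Slc1a2, at 129 to 626 CPM against 3019 to 16470 CPM) and 5 not called. Aqp4 lay above cortex without passing the test (460 to 564 CPM against 19.6 to 136 CPM), and the means of Slc1a3 (103 against 303 CPM) and S100b (22.8 against 96.9 CPM) lay below cortex, so the list did not set these libraries above cortex as a whole. In 92 of 12275 genes (0.749%) with a mean of at least 10 counts, the 6 Ai47 columns lay within 5% of one another, which occurred for 0 genes in cortex. None of the 10 integrin genes was among them, and their Ai47 counts spread over 46.3% to 555% of the mean.

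Against cortex, the Ai47 aSMCs held more transcript of 5 of the 10 integrin genes and less of 2. The 5 were Itga1, Itga7, Itga8, Itgav and Itgb1, and the 2 were Itga6 and Itgb8. In the same comparison, 24.1% of all genes tested were called higher and 26.5% lower (edgeR quasi-likelihood test, adjusted p under 0.05 over all genes). Ai14 aSMCs had 4 of 10 higher (Itga1, Itga7, Itga8 and Itgb1) and 1 lower (Itgb8), where 3.97% of all genes were higher and 2.0% lower. Astrocytes had only Itgb8 called higher and 5 lower (Itga1, Itga5, Itga6, Itga7 and Itgb3), beside 14.6% and 19.8% of all genes. The median log2 difference of the 10 genes was 0.85 in Ai47 aSMCs, 1.53 in Ai14 aSMCs and -3.43 in astrocytes, beside -0.16, 0.32 and -0.08 over all genes. The 3 comparisons share the cortex libraries and are given side by side. In bulk samples, fewer cells of a type and less RNA per cell cannot be told apart. With the 6 Ai47 columns averaged to 1 library, an arm of 1 library remained, and fewer genes were called, among the 10 and over all genes. The log2 differences of the 4 lost calls were as large as before (Itga6 -5.68, Itga8 3.24, Itgav 2.51 and Itgb1 1.52), so the loss does not show smaller differences.

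**Figure D1:**
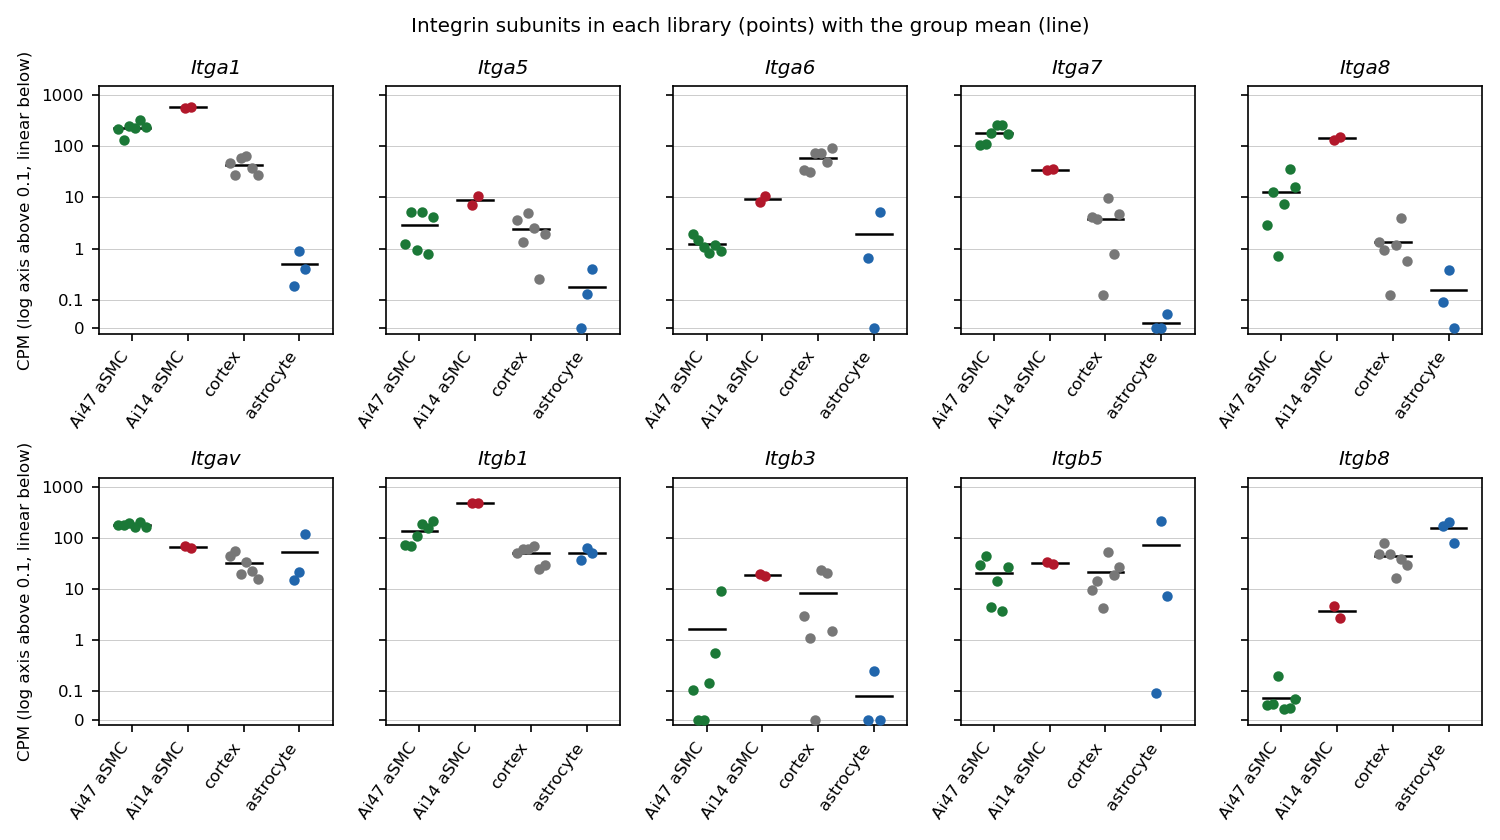
CPM of each integrin gene in each library (points, in replicate order) with the group mean (line), on a log axis above 0.1 CPM and a linear one below. Itga7 sits at 105 to 258 CPM in Ai47 aSMCs and at 0 to 0.0505 CPM in astrocytes, whereas Itgb8 runs the other way, from 0.0368 to 0.203 CPM in Ai47 aSMCs to 77.1 to 207 CPM in astrocytes.

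Itga1 (chr13:114953096-115101964, minus strand) encodes the α1 subunit of the collagen and laminin receptor α1β1. It ranged from 133 CPM over a median of 230 to 326 CPM in Ai47 aSMCs, and it was 564 and 587 CPM in Ai14 aSMCs. Cortex ranged from 27.6 CPM over a median of 42.1 to 64.3 CPM, and the astrocyte libraries had 0.187, 0.888 and 0.404 CPM. None of the 4 groups overlapped in this gene. Compared with cortex, Itga1 rose by 2.40 ± 0.41 (log2, SE) in Ai47 aSMCs (edgeR adjusted p = 5.76e-05) and by 3.72 ± 0.50 in Ai14 aSMCs (edgeR adjusted p = 8.27e-05). In astrocytes its log2 difference from cortex was -6.50 ± 0.69 (edgeR adjusted p = 2.2e-06). All 3 calls held in 17 of 17 fits that left out 1 library, with an astrocyte value of -7.29 without astrocyte replicate 2. Of the basement membrane collagen IV genes, Col4a1 rose by 2.07 ± 0.60 in Ai47 aSMCs (edgeR adjusted p = 0.00675) and by 3.38 ± 0.74 in Ai14 aSMCs (edgeR adjusted p = 0.00709). Its partner chain gene Col4a2 was called in Ai14 aSMCs (3.18 ± 0.91, edgeR adjusted p = 0.0406) and not in Ai47 aSMCs (0.20 ± 0.71, edgeR adjusted p = 0.84). Both were lower than cortex in astrocytes.

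Among the laminin receptor subunits, Itga7 and Itga6 changed in opposite directions. Itga7 (chr10:128933818-128958282, plus strand), the α7 subunit known from skeletal, cardiac and smooth muscle, ranged from 105 CPM over a median of 178 to 258 CPM in Ai47 aSMCs. It was 33.9 and 35.7 CPM in Ai14 aSMCs and 0.125 to 9.69 CPM in cortex, with a cortex median of 3.92 CPM. Every aSMC library of either genotype was above every cortex library. The rise over cortex was 5.55 ± 0.74 in Ai47 aSMCs (edgeR adjusted p = 3.53e-06) and 3.17 ± 0.78 in Ai14 aSMCs (edgeR adjusted p = 0.0175) on the log2 scale. Without cortex replicate 4 the Ai47 rise was 6.23. The Ai14 call held in only 11 of 17 fits that left out 1 library, being lost without Ai14 replicate 7 (2.98) or 8 (2.84) and without cortex replicate 1 (2.88), 2 (2.84), 5 (2.70) or 6 (2.99). It also missed the threshold with DESeq2 size factors (2.64, edgeR adjusted p = 0.055). Astrocytes held 1 Itga7 count over 3 libraries, and the pooled level in cortex was 142 times theirs, with a 95% counting interval of 25.1 to 5630.

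Itga6 (chr2:71745616-71858416, plus strand), the α6 subunit found in endothelium, oligodendrocytes and neural stem cells, ranged from 31.1 CPM over a median of 62.1 to 93.2 CPM in cortex. Ai47 aSMCs ranged from 0.81 CPM over a median of 1.134 to 1.94 CPM, Ai14 aSMCs had 8.10 and 10.7 CPM, and astrocytes had 0.655, 0 and 5.21 CPM. Cortex was above every sorted library. The log2 fold change was -5.59 ± 0.83 in Ai47 aSMCs (edgeR adjusted p = 1.41e-05) and -4.89 ± 1.10 in astrocytes (edgeR adjusted p = 0.00225), the latter -7.61 without astrocyte replicate 3. For Ai14 aSMCs it was -2.66 ± 1.15 and missed the threshold (edgeR adjusted p = 0.195). The DESeq2 test (-3.24, adjusted p = 0.00278), an edgeR fit of the 2 groups alone (-2.999, adjusted p = 0.00174) and the edgeR fit without astrocyte replicate 2 (-2.95, adjusted p = 0.0362) called it lower. Within a library, Itga7 counts per kb were 60.4 to 356 times those of Itga6 in Ai47 aSMCs and 3.71 and 4.67 times in Ai14 aSMCs, against 0.00188 to 0.146 times in cortex. That ratio needs no scaling between libraries. The summed level of 7 endothelial markers was 90.8 to 199 CPM in Ai47 aSMCs, 276 and 302 CPM in Ai14 aSMCs, 304 to 1095 CPM in cortex and 515 to 1256 CPM in astrocytes. In Ai47 aSMCs 6 of the 7 were lower than cortex and Cldn5 was not called (0.92), in Ai14 aSMCs 0 were called (edgeR), and in astrocytes 6 were lower and Slc2a1 was higher. In the same order of groups, 6 oligodendrocyte lineage markers summed to 1.53 to 2.45 CPM, 130 and 170 CPM, 2484 to 8991 CPM and 9.01 to 245 CPM, with 5, 3 and 3 of 6 lower than cortex in the sorted groups. Their part in the Itga6 difference was not tested. Of the laminin α chains that these receptors meet, Lama4 rose by 3.54 ± 0.70 in Ai47 aSMCs (edgeR adjusted p = 0.000278) and was not called in Ai14 aSMCs (2.23 ± 0.82, edgeR adjusted p = 0.119). Lama5 rose by 3.87 ± 0.83 in Ai14 aSMCs (edgeR adjusted p = 0.00598) and was not called in Ai47 aSMCs (1.10 ± 0.65, edgeR adjusted p = 0.166). Lama2, the chain of muscle laminin, was called in neither (-2.07 ± 1.01 in Ai47 and 1.64 ± 1.27 in Ai14 aSMCs).

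The α8 gene Itga8 (chr2:12106632-12301922, minus strand), whose product pairs with β1 and binds nephronectin, was the gene with the largest gain in Ai14 aSMCs among the 10. Those libraries had 134 and 151 CPM, Ai47 aSMCs ranged from 0.73 CPM over a median of 10.2 to 35.8 CPM, and cortex from 0.125 CPM over a median of 1.07 to 3.87 CPM. Ai47 and cortex overlapped, whereas both Ai14 libraries were above all others. The log2 rise over cortex was 6.76 ± 1.14 in Ai14 aSMCs (edgeR adjusted p = 0.000694) and 3.27 ± 0.91 in Ai47 aSMCs (edgeR adjusted p = 0.00524), and both calls held in 17 of 17 fits that left out 1 library. The Ai47 rise was 4.12 without cortex replicate 5. Astrocytes had 4 Itga8 counts in all and were not called (-3.21 ± 1.33, edgeR adjusted p = 0.0662), though the DESeq2 test called them lower (-3.15, adjusted p = 0.0242). Npnt, the nephronectin gene, was called higher than cortex in all 3 sorted groups, by 3.81 ± 0.66 in Ai47 aSMCs, 3.27 ± 0.76 in Ai14 aSMCs and 2.37 ± 0.70 in astrocytes (edgeR adjusted p = 7.37e-05, 0.011 and 0.013). The astrocyte libraries were uneven, with a median of 31.6 CPM and a lowest value of 1.78 CPM, which lay below the cortex range of 2.15 to 8.31 CPM.

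Itgav (chr2:83724397-83806916, plus strand) encodes αv, the partner of β1, β3, β5 and β8. It was even among Ai47 aSMCs, at 159 to 206 CPM with a median of 178 CPM, and it was 68.5 and 63.3 CPM in Ai14 aSMCs. Cortex ran from 15.3 CPM over a median of 28.0 to 55.6 CPM. The aSMC libraries of both genotypes lay above all cortex libraries. The log2 difference from cortex was 2.50 ± 0.51 in Ai47 aSMCs (edgeR adjusted p = 0.000379) and 1.06 ± 0.64 in Ai14 aSMCs (edgeR adjusted p = 0.384). With library totals in place of TMM, the Ai47 difference was 1.002 and no longer passed (edgeR adjusted p = 0.177). The 3 astrocyte libraries had 14.98, 21.7 and 120 CPM, and their log2 difference from cortex changed from 0.72 to -0.84 without replicate 3. Vtn, the gene of the αv ligand vitronectin and a gene that pericytes express, rose by 3.70 ± 0.56 in Ai47 aSMCs (edgeR adjusted p = 1.58e-05) and by 2.57 ± 0.65 in Ai14 aSMCs (edgeR adjusted p = 0.0192). Other genes of the ligand and matrix list below did not all rise. In Ai47 aSMCs Thbs1, Ccn1 and Spp1 were called higher than cortex, Edil3 and Fbln5 lower, and Fn1, Mfge8, Tnc and Postn were not called. In Ai14 aSMCs only Thbs1 and Ccn1 of these were called, both higher.

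The fibronectin receptor gene Itga5 (chr15:103344286-103366763, minus strand) was low in every group. It ranged from 0.768 CPM over a median of 2.71 to 5.30 CPM in Ai47 aSMCs, was 7.03 and 10.7 CPM in Ai14 aSMCs, and ranged from 0.258 CPM over a median of 2.23 to 4.87 CPM in cortex. Neither aSMC group was called against cortex, with log2 differences of 0.27 ± 0.87 for Ai47 aSMCs (edgeR adjusted p = 0.819) and 1.86 ± 1.1 for Ai14 aSMCs (edgeR adjusted p = 0.386). Astrocytes, at 0, 0.127 and 0.404 CPM, were called lower by a log2 value of -3.65 ± 1.32 (edgeR adjusted p = 0.0377) although 1 cortex library lay among them, and the call was lost without cortex replicate 1 (-3.64) and without astrocyte replicate 1 (-3.19) or 2 (-3.59), while without astrocyte replicate 3 the value was -5.28. Fn1, the fibronectin gene, was not called in either aSMC group (0.68 ± 0.38 and -0.10 ± 0.54) and was lower in astrocytes (-3.84 ± 0.58, edgeR adjusted p = 7.96e-05).

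Itgb1 (chr8:128685654-128733200, plus strand), the shared partner of α1, α5, α6, α7 and α8, had the highest level per kb of exon among the 10 genes in Ai47 aSMCs, Ai14 aSMCs and cortex. It ranged from 69.8 CPM over a median of 130 to 215 CPM in Ai47 aSMCs, was 482 CPM in both Ai14 libraries, ranged from 24.3 CPM over a median of 55.6 to 70.4 CPM in cortex, and was 36.0, 63.7 and 49.9 CPM in astrocytes. The lowest Ai47 library lay just under the highest cortex library, and the Ai14 libraries stood apart from all others. The log2 rise over cortex was 1.43 ± 0.41 in Ai47 aSMCs (edgeR adjusted p = 0.00654) and 3.29 ± 0.52 in Ai14 aSMCs (edgeR adjusted p = 0.000368). With library totals alone the Ai47 rise was 0.11 and not called (edgeR adjusted p = 0.868), so its call depended on the scaling. Astrocytes were not called against cortex (0.01 ± 0.49, edgeR adjusted p = 0.996).

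Itgb8 (chr12:119158022-119238802, minus strand), whose coding tail lacked the motif above, had the largest difference from cortex among the 10 genes in Ai47 aSMCs. Its astrocyte libraries had 172, 207 and 77.1 CPM, and cortex ranged from 16.02 CPM over a median of 43.7 to 79.0 CPM. Ai14 aSMCs had 4.69 and 2.67 CPM, and Ai47 aSMCs had 0.0368 to 0.203 CPM, from 11 counts over 6 libraries. The aSMC libraries lay below all cortex and astrocyte libraries, and Ai47 lay below Ai14. Itgb8 was lower than cortex by log2 values of -9.00 ± 0.71 in Ai47 aSMCs (edgeR adjusted p = 2.85e-09) and -3.56 ± 0.88 in Ai14 aSMCs (edgeR adjusted p = 0.017). The Ai47 call held in 17 of 17 fits that left out 1 library, while the Ai14 call was lost without replicate 7 (-4.19) or 8 (-3.44) and with library totals alone (-2.83). Astrocytes were higher than cortex by 1.81 ± 0.58 (edgeR adjusted p = 0.0208), with 1 library inside the cortex range, and without astrocyte replicate 2 the value was 1.38 (edgeR adjusted p = 0.0845). Neuron markers moved with the gap between the aSMC genotypes, with 0.0809 to 1.75 CPM over 6 neuron markers in Ai47 aSMCs and 16.1 and 18.6 CPM in Ai14 aSMCs, beside 450 to 821 CPM in cortex. The astrocyte markers did not go 1 way, since Slc1a2 was at 0.255 to 0.838 CPM in Ai47 aSMCs and 102 and 214 CPM in Ai14 aSMCs, whereas Gja1 had a mean of 1093 CPM in Ai47 and 6.32 CPM in Ai14 aSMCs. The part of these cells in the Ai14 Itgb8 level was not tested.

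Genes of the TGF-β ligands and of proteins that hold or bind latent TGF-β were measured too, whether or not αvβ8 acts on each. Tgfb1, encoding TGF-β1, was lower than cortex in Ai47 aSMCs (-3.93 ± 1.04, edgeR adjusted p = 0.00369) and in astrocytes (-6.07 ± 1.60, edgeR adjusted p = 0.00691) and was not called in Ai14 aSMCs (-0.24 ± 1.32). Tgfb2 and Tgfb3, encoding the other TGF-β ligands, were higher than cortex in both aSMC groups. Tgfb3 rose by 5.57 ± 0.98 in Ai47 aSMCs (edgeR adjusted p = 8.35e-05) and 4.59 ± 1.05 in Ai14 aSMCs (edgeR adjusted p = 0.00976), and Tgfb2 by 1.76 ± 0.48 (edgeR adjusted p = 0.00458) and 2.46 ± 0.60 (edgeR adjusted p = 0.0161). Neither was called in astrocytes. Lrrc32, encoding the surface protein GARP that holds latent TGF-β, rose in aSMCs by 3.33 ± 0.69 (Ai47, edgeR adjusted p = 0.000463) and 6.75 ± 0.86 (Ai14, edgeR adjusted p = 5.4e-05). It was called lower than cortex in astrocytes, which held 3 counts of it in all. Nrros of the same list was called in neither aSMC group and was lower in astrocytes. Ltbp1, encoding a latent TGF-β binding protein, was higher in both aSMC groups and lower in astrocytes.

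The 2 other β genes were uneven among replicates. Itgb3 (chr11:104608000-104670476, plus strand), the β3 subunit of αvβ3 and of the platelet integrin αIIbβ3, was 17.8 and 19.8 CPM in Ai14 aSMCs. In Ai47 aSMCs it ran from 0 CPM over a median of 0.126 to 8.99 CPM, and cortex ran from 0 CPM over a median of 2.24 to 23.3 CPM. Of the 267 Ai47 counts, 247 came from replicate 6, and without it the group mean fell from 1.63 to 0.164 CPM. No call was made for Ai47 (-2.32 ± 1.46, edgeR adjusted p = 0.195) or Ai14 aSMCs (1.19 ± 1.86, edgeR adjusted p = 0.801) against cortex, though without Ai47 replicate 6 the Ai47 value was -5.50 and was called (edgeR adjusted p = 0.00682). Astrocytes held 2 Itgb3 counts, and the pooled level in cortex was 108 times theirs (95% counting interval 29.7 to 899). Their call as lower (edgeR adjusted p = 0.0487) held in only 9 of 17 fits that left out 1 library, being lost without Ai14 replicate 7 or 8, cortex replicate 1, 4 or 5, or any 1 astrocyte library, with log2 values from -6.21 to -10.32 in the 17 fits. Of 5 platelet markers, Pf4, Ppbp, Gp1bb and Gp9 were all at 0 in the astrocyte libraries. The remaining marker Itga2b, which encodes αIIb, was higher there than in cortex (7.40 ± 1.31, edgeR adjusted p = 0.000327). The 5 markers summed to 5.96 to 19.95 CPM in astrocytes and 0.775 to 20.98 CPM in cortex. Their part in the Itgb3 difference was not tested.

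Itgb5 (chr16:33829665-33949338, plus strand), the β5 partner of αv, was called in none of the 6 comparisons among groups. It ranged from 3.72 CPM over a median of 20.9 to 43.8 CPM in Ai47 aSMCs, was 34.0 and 30.01 CPM in Ai14 aSMCs, and ranged from 4.24 CPM over a median of 16.4 to 51.6 CPM in cortex. The astrocyte libraries had 0.0936, 207 and 7.23 CPM, so that replicate 2 carried nearly all of their 1779 counts. Without it, the astrocyte mean fell from 71.6 to 3.66 CPM. The Ai47 difference from cortex was -0.03 ± 0.95 on the log2 scale (edgeR adjusted p = 0.989).

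**Figure D2:**
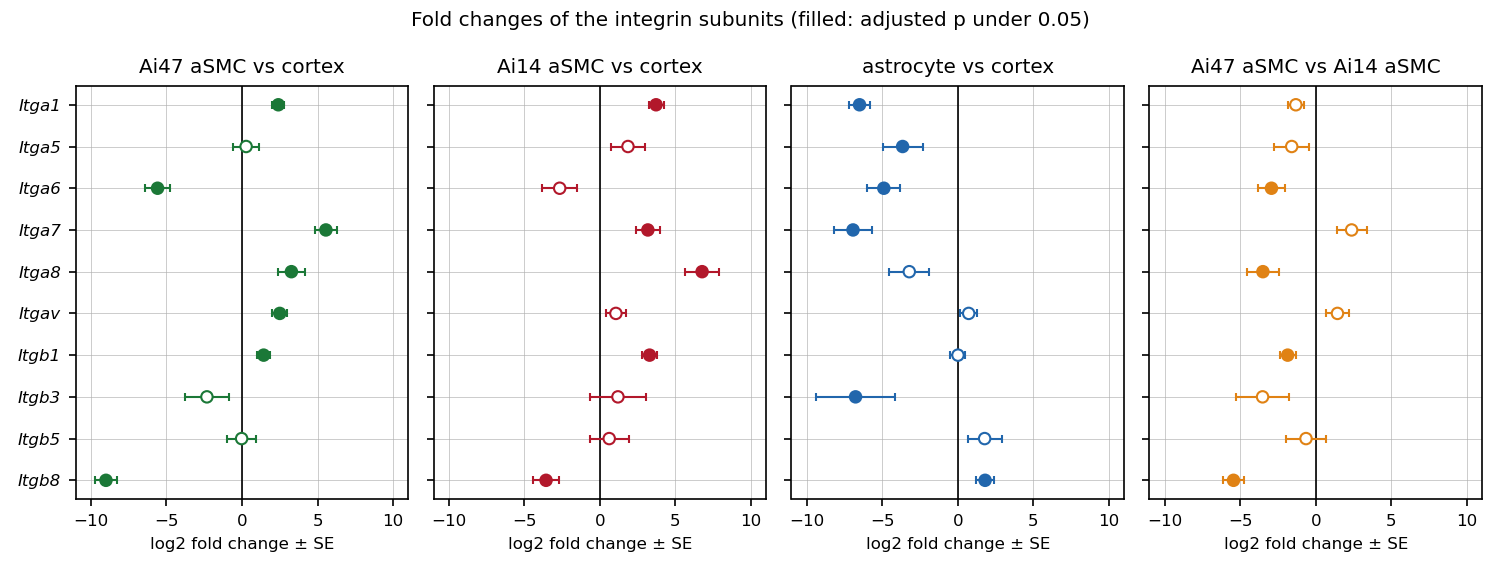
Log2 fold change (x axis) of each integrin gene in 3 comparisons with cortex and between the aSMC genotypes. Points are edgeR estimates, bars are 1 SE and filled points have an adjusted p under 0.05. Itga7 has a positive and Itgb8 a negative value in both aSMC comparisons with cortex, and the astrocyte panel has Itgb8 as its only filled point above 0.

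Setting the aSMC genotypes against each other, 0 of the 10 genes were called higher in Ai47 and 4 lower, namely Itga6, Itga8, Itgb1 and Itgb8, where 9.55% of all genes were higher and 16% lower. At an unadjusted p under 0.05 in edgeR, 1 was higher (Itga7). The DESeq2 test called 2 higher (Itga7 and Itgav), beside 2555 of all 14927 genes. With the 6 Ai47 columns averaged to 1 library, the log2 differences were -5.04 for Itgb8, -3.20 for Itga8, -2.72 for Itga6 and -1.51 for Itgb1. An arm of 1 library shows no spread of its own, so calls in that fit decide nothing about these genes. With the columns kept apart, Itgb8 had a log2 difference of -5.44 ± 0.69 (edgeR adjusted p = 1.19e-05). This call held in 17 of 17 fits that left out 1 library, with values from -5.50 to -4.61. The smaller differences were -4.61 without Ai14 replicate 7, -4.79 without Ai47 replicate 4 and -4.80 without Ai47 replicate 5. The other calls were less secure. Itga8 differed by -3.49 ± 1.04 (edgeR adjusted p = 0.0178), Itga6 by -2.93 ± 0.88 (edgeR adjusted p = 0.0188) and Itgb1 by -1.85 ± 0.53 (edgeR adjusted p = 0.0132). Leaving out 1 library kept the Itga8 call in 10 of 17 fits, the Itga6 call in 4 and the Itgb1 call in 6. All 3 calls were lost when Ai14 replicate 7 was left out, and again when Ai14 replicate 8 was. The median of all genes in this comparison was -0.42 with the scaling used and -0.07 with DESeq2 size factors, so a common shift lies under these values. The other libraries without which the Itga8 call was lost were Ai47 replicates 1, 2, 3, 4 and 6. For Itga6, they were Ai47 replicates 2 to 6 and each of the 6 cortex libraries. For Itgb1, they were Ai47 replicates 1 to 5 and cortex replicates 1, 2, 3 and 5. Over the 17 fits the log2 values were -3.70 to -2.80 for Itga8, -2.74 to -2.27 for Itga6 and -1.54 to -1.25 for Itgb1. The values from all 17 libraries lay outside the range for Itga6 and Itgb1, and also for Itga7 (2.69 to 2.97) and Itgav (1.81 to 1.99). Leaving out any 1 library thus raised all of these values, so a lost call does not single out the library left out. The part of the scaling was not tested. Itga7 (2.38 ± 0.998, edgeR adjusted p = 0.0862) and Itgav (1.44 ± 0.74, edgeR adjusted p = 0.165) had the positive values and were not called, and both were called when the 2 aSMC groups were fitted alone (edgeR adjusted p = 0.00393 and 0.000209). Genotype, reporter, depth and mitochondrial share all differ between the 2 aSMC groups and cannot be told apart.

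Compared directly with astrocytes, Ai47 aSMCs had 6 of 10 genes higher (Itga1, Itga5, Itga7, Itga8, Itgav and Itgb1) and Itgb8 lower, beside 26.1% of all genes higher and 23.8% lower. The Itgav and Itgb1 differences were small, at 1.78 ± 0.64 (edgeR adjusted p = 0.0264) and 1.42 ± 0.53 (edgeR adjusted p = 0.0308), and they turned to -0.61 and -0.66 with library totals alone. Without astrocyte replicate 3 the Itgav difference was 3.52, and without astrocyte replicate 1 the Itgb1 difference was 1.43 and missed the threshold (edgeR adjusted p = 0.0518). Single astrocyte libraries also moved other Ai47 values, all still called, with Itga1 at 9.81, Itga8 at 8.42 and Itgb8 at -10.21 without replicate 2 and Itga5 at 5.68 without replicate 3. Ai14 aSMCs had 5 of 10 higher (Itga1, Itga5, Itga7, Itga8 and Itgb1) and Itgb8 lower, beside 13.6% and 3.56% of all genes. The Itga5 call of Ai14 aSMCs (5.51 ± 1.54, edgeR adjusted p = 0.0181) was lost without Ai14 replicate 8 (5.02) and was 4.82 without astrocyte replicate 1 and 6.90 without replicate 3, and Itga8 was 11.56 without astrocyte replicate 2 and 9.06 without replicate 3. The Itgb8 log2 differences were -10.80 ± 0.78 for Ai47 aSMCs (edgeR adjusted p = 2.35e-09) and -5.37 ± 1.0 for Ai14 aSMCs (edgeR adjusted p = 0.000965). When the 5 libraries of Ai14 aSMCs and astrocytes were fitted alone, 0 of 12864 genes passed in edgeR, so the loss of the 6 calls says nothing about these genes in particular. Their log2 differences stayed close, for example 10.23 for Itga1, 9.997 for Itga8 and -5.32 for Itgb8, with adjusted p from 0.0535 to 0.166.

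Shares within a library, taken over counts per kb, showed which subunit led per kb without any scaling between libraries. The order of genes depends on the exon lengths used, such as 18599 bases for Itga1 and 8092 for Itga7. By mean CPM in Ai47 aSMCs, Itga1 (231.6) lay above Itga7 (180.8) and Itgav (178.8). Among the 6 α genes, Ai47 aSMCs were led by Itga7 (40.4% ± 7.61, SD, n = 6), Itgav (32.1% ± 7.02) and Itga1 (23.1% ± 3.72). In the 2 Ai14 libraries Itga1 took 48.0% and 49.4% and Itga8 29.6% and 31.2%, with Itga7 at 6.72% and 6.82%. Cortex was led by Itga6 (49.5% ± 15.6, SD, n = 6) and astrocytes by Itgav (94.0% ± 0.338, SD, n = 3). These leaders are by group mean. Itgav was above Itga7 in Ai47 replicates 1 and 2 and above Itga6 in cortex replicates 1 and 2. Among the 4 β genes, Itgb1 took 82.5% ± 16 in Ai47 aSMCs, 89.8% and 91.0% in the Ai14 libraries and 51.9% ± 14.7 in cortex. Itgb8 took 18.1% ± 8.05 in cortex and 38.9% ± 22.4 in astrocytes but 0.00683% to 0.0662% in Ai47 aSMCs. Neighbouring ranks were often inseparable, as with Itga7 and Itgav in Ai47 aSMCs, whose ranges of 30.9% to 52.3% and 24.2% to 41.6% overlapped.

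**Figure D3:**
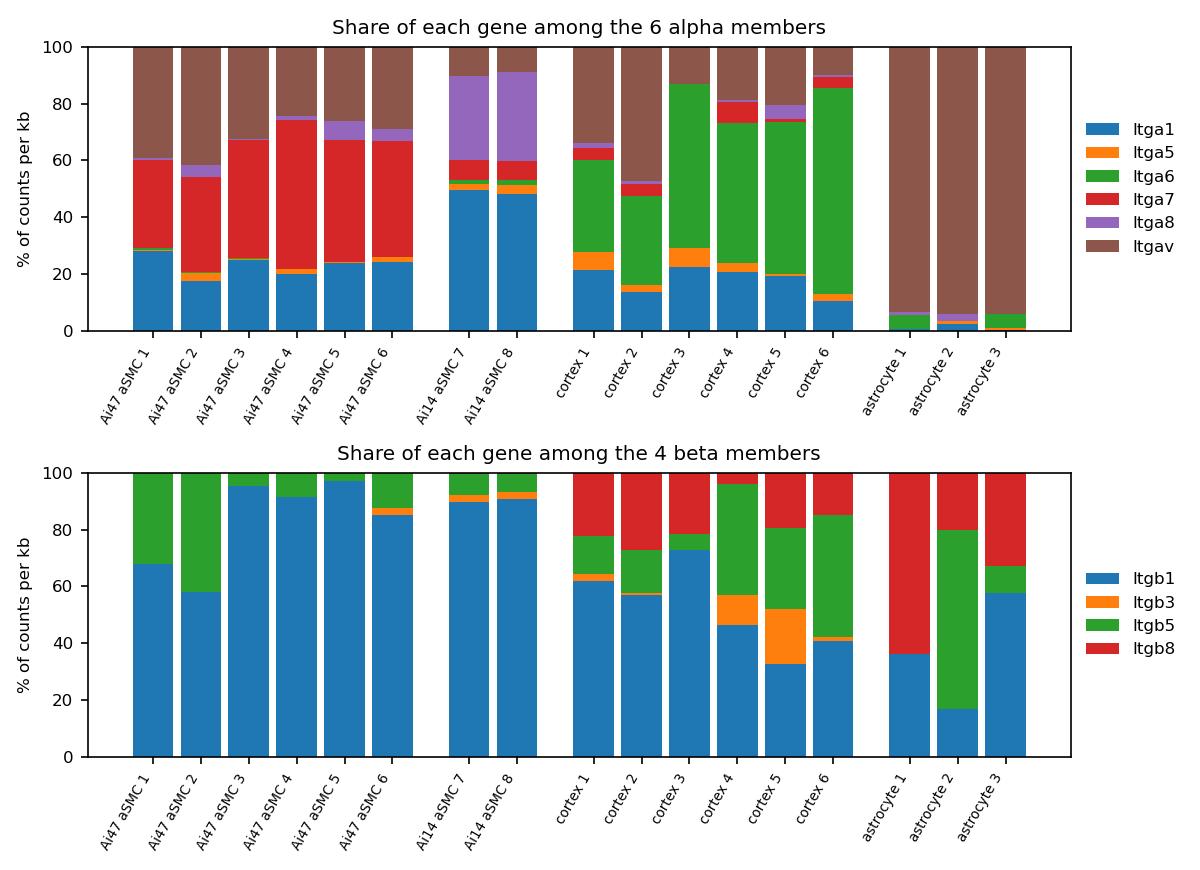
Share of each gene in the counts per kb of exon of the 6 α genes (top) and the 4 β genes (bottom), 1 bar per library, y axis in percent. Itga7 and Itgav fill most of each Ai47 bar and Itga1 and Itga8 most of each Ai14 bar, while Itga6 has the largest share in 4 of the 6 cortex bars, and Itgav 93.6% to 94.2% of each astrocyte bar.

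The table held 16 more integrin genes, of which 11 passed the filter. Their counts below stand beside the same shares of all genes as above (24.1% higher and 26.5% lower for Ai47 aSMCs against cortex). In Ai47 aSMCs only Itga3, encoding a laminin receptor subunit, was higher than cortex (2.98 ± 1.14, edgeR adjusted p = 0.0353), and Itga2, Itgal, Itgam, Itgb2 and Itgb6 were lower. Itgam and Itgb2 encode the leukocyte integrin that marks microglia in brain, and Itgam had a cortex median of 138 CPM against 3 counts over the 6 Ai47 libraries, a ratio of 4610 (95% counting interval 1580 to 22400). Ai14 aSMCs had Itga4 (3.31 ± 0.74, edgeR adjusted p = 0.00872), Itga9 (3.84 ± 0.79, edgeR adjusted p = 0.00445) and Itga10 (4.59 ± 1.32, edgeR adjusted p = 0.0454) higher and Itgam lower. Itga9 encodes a receptor for tenascin and osteopontin, Itga4 one for fibronectin and VCAM-1, and Itga10 a collagen receptor. In astrocytes 1 was higher and 7 lower. The higher one was Itga2b, the platelet αIIb gene (7.40 ± 1.31, edgeR adjusted p = 0.000327), with 110 to 213 counts per astrocyte library while the other 4 platelet markers stood at 0.

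Of 27 tested genes of the adhesion complex, which couples integrin tails to actin, 9 were higher and 6 lower than cortex in Ai47 aSMCs, 7 higher and 1 lower in Ai14 aSMCs, and 1 higher and 9 lower in astrocytes. In percent of the 27, Ai47 aSMCs had 33.3% higher and 22.2% lower, near the 24.1% and 26.5% of all genes, Ai14 aSMCs 25.9% and 3.70% beside 3.97% and 2.0%, and astrocytes 3.70% and 33.3% beside 14.6% and 19.8%. Their median log2 difference was 0.46, 1.48 and -0.87, beside -0.16, 0.32 and -0.08 over all genes. The largest changes in Ai47 aSMCs were Actn1, encoding the actin cross-linker α-actinin (4.91 ± 0.71, edgeR adjusted p = 9.35e-06), and Flna, encoding filamin A (3.74 ± 0.52, edgeR adjusted p = 6.23e-06), and downward Parvg, the blood cell parvin (-6.22 ± 1.28, edgeR adjusted p = 0.000525), and Ptk2b, encoding the kinase PYK2 (-5.22 ± 0.81, edgeR adjusted p = 3.25e-05). Actn1 and Flna were also higher in Ai14 aSMCs (5.04 ± 0.79 and 5.83 ± 0.63). Tln1, the main talin gene, was called higher in Ai14 aSMCs (3.21 ± 0.84, edgeR adjusted p = 0.0264), was -0.08 ± 0.66 in Ai47 aSMCs and had a log2 difference of -3.29 ± 0.84 between Ai47 and Ai14 aSMCs (edgeR adjusted p = 0.00695).

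All 29 ligand and matrix genes of the list were tested. Ai47 aSMCs had 13 higher and 3 lower than cortex, Ai14 aSMCs 14 higher and 0 lower (1 lower at an unadjusted p under 0.05 in edgeR), and astrocytes 2 higher and 12 lower. In percent of the 29, these are 44.8% and 10.3% beside 24.1% and 26.5% of all genes, 48.3% and 0% beside 3.97% and 2.0%, and 6.90% and 41.4% beside 14.6% and 19.8%. The median log2 difference was 1.70, 2.46 and -2.30, beside -0.16, 0.32 and -0.08 over all genes. Col1a1, the fibrillar collagen gene (10.36 ± 0.65, edgeR adjusted p = 9.56e-11), and Ltbp1, encoding a latent TGF-β binding protein (9.98 ± 0.58, edgeR adjusted p = 3.25e-11), had the largest gains in Ai47 aSMCs. The 6 Ai47 columns of Col1a1 held 39417 to 40086 counts, which makes it 1 of the 92 genes that were nearly equal across them. Spp1, also among the 13 higher genes, was another, with 573 to 574 counts in each column. Edil3, encoding an αv ligand (-5.38 ± 1.10, edgeR adjusted p = 0.000398), and Tgfb1 fell most. Ltbp1 also rose in Ai14 aSMCs (5.11 ± 0.52, edgeR adjusted p = 4.55e-06). Col1a1 did not pass there, at 2.003 CPM on average against 1739 CPM in Ai47 aSMCs, and it differed between the genotypes by 9.76 ± 1.06 (edgeR adjusted p = 1.93e-06).

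**Figure D4:**
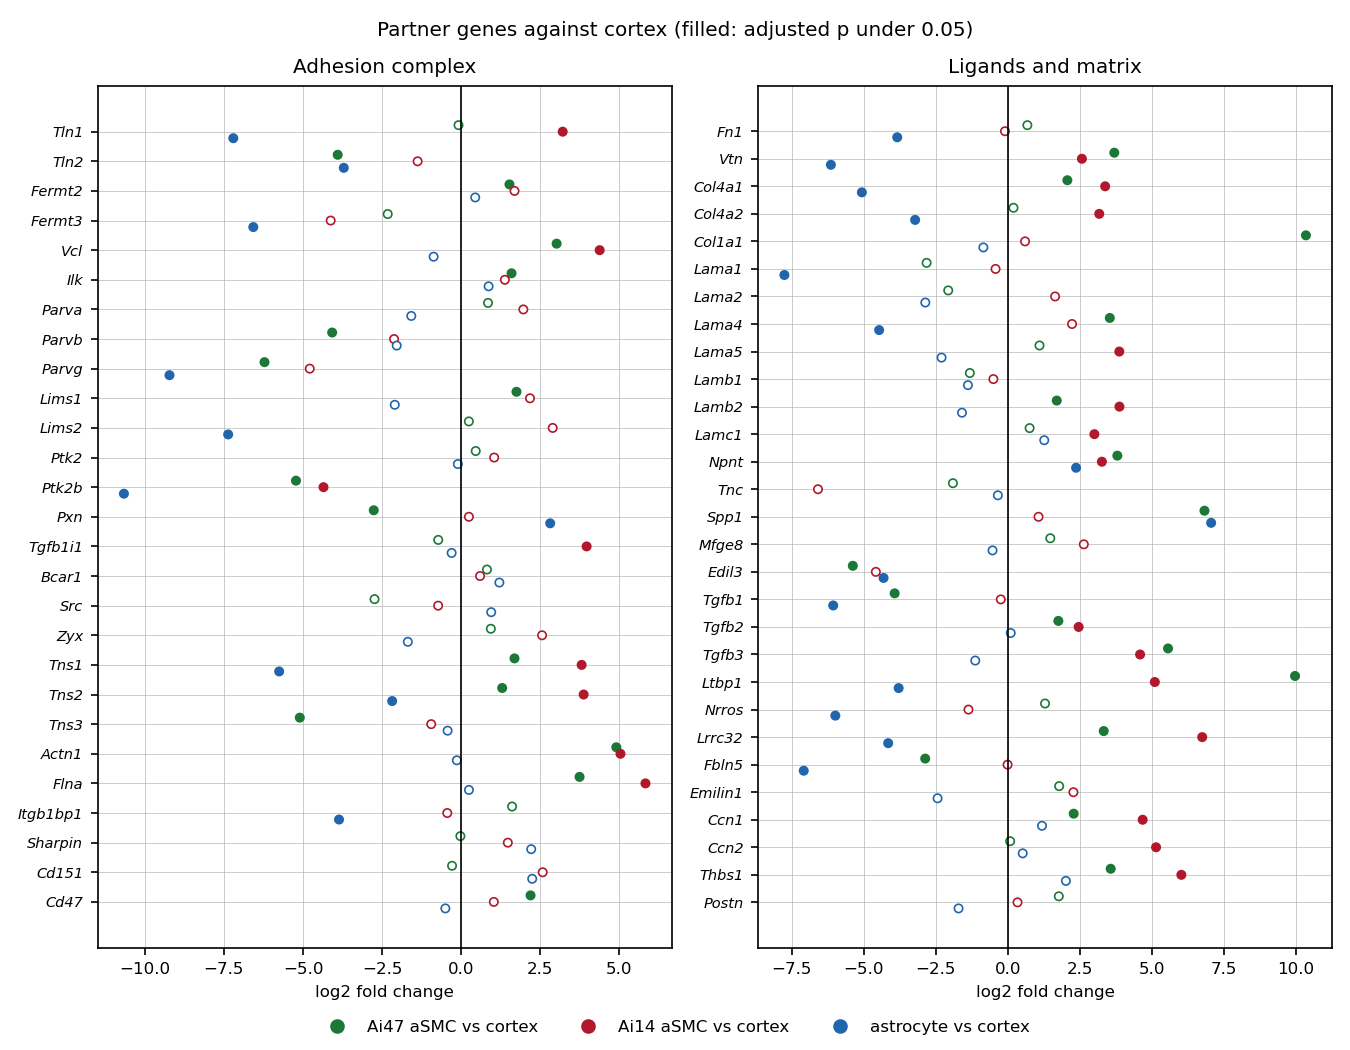
Log2 fold change against cortex (x axis) of each tested gene of the adhesion complex list (left) and of the ligand and matrix list (right). Colours give the comparison and filled points have an adjusted p under 0.05. Most filled astrocyte points of the right panel lie below 0 (12 of 14), and no filled Ai14 point there does.

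Scaling moved the balance of calls over all genes. Of the genes called between Ai47 aSMCs and cortex, 47.7% were higher with TMM and 26.8% with library totals, and the median of all genes moved from -0.16 to -1.50. For Ai14 aSMCs against cortex the share was 66.6% with TMM, 49.6% with DESeq2 size factors and 90.4% with library totals, and it was 24% with the DESeq2 test and 37.8% with the 2 groups alone, and for astrocytes 42.4% and, with library totals, 60.8%. Between the aSMC genotypes it was 37.3% with TMM, 49.1% when mitochondrial genes were left out, 57% with the DESeq2 test, 48.5% with the 2 groups alone and 7.48% with library totals. Against astrocytes it was 52.3% (TMM) and 22.4% (library totals) for Ai47 aSMCs, and 79.2% (TMM) and 66.8% (DESeq2 size factors) for Ai14 aSMCs. With library totals alone, Itga1, Itga7 and Itga8 were still called higher than cortex in both aSMC genotypes, at smaller Ai47 values of 1.15, 4.28 and 2.12 and larger Ai14 values of 4.66, 4.08 and 7.81. Itgb8 in Ai47 aSMCs was -10.40.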

How the data were processed

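RNA of sorted aSMCs, sorted astrocytes and cortex was sequenced in 17 bulk libraries, and the authors deposited 1 table of raw counts per gene. The submitters' processing notes name Salmon 1.4.0 and the trimmer Trim Galore 0.6.7, on the GRCm38 build, while the study's methods name TopHat and htseq-count. These accounts differ, and the sources used here do not give the annotation release, strand setting or filters. The study's methods describe Ai47 aSMCs while a legend names Ai14, and groups here follow the labels.

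Counts were tested in edgeR 4.0.16 (R 4.3.3) with its quasi-likelihood test in 1 fit of all 17 libraries, after its default filter (minimum count 10) and TMM scaling, with Benjamini-Hochberg adjustment over 14927 genes and a threshold of 0.05. The SE of a log2 fold change was its size divided by the square root of F. DESeq2 1.42.0, other scalings, other filters and each library left out were alternatives. Counting intervals are 95% and cover counting error only. Exon lengths, positions and tails came from GENCODE M21 on GRCm38.

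The 10 genes, the other gene lists and the tests were chosen with earlier results of these data known. Named from the other lists were integrins called in either aSMC group against cortex, the 2 largest changes each way in Ai47 aSMCs, and some of the ligands of the 10. Tln1, Itga2b and comparisons of Actn1, Flna, Ltbp1 and Col1a1 beyond that were added after their values were seen.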

Additional observations from a re-analysis of the deposited data

Results flagged for a closer look

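Of 20 sets of libraries (each gene in Ai47 aSMCs and in cortex), 3 had a library far from the rest by Dixon's test, where chance gives about 1 in 20. They were Itga8 in cortex replicate 5 (3.87 CPM), Itgb3 in Ai47 aSMC replicate 6 (8.99 CPM) and Itgb8 in Ai47 aSMC replicate 3 (0.203 CPM, from 5 counts).

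In the edgeR fit of all libraries, the difference from cortex was called unequal in the 2 aSMC genotypes for 4 genes. The test was the direct comparison of Ai47 with Ai14 aSMCs. The Ai47 value minus the Ai14 value was -2.93 for Itga6, -3.49 for Itga8, -1.85 for Itgb1 and -5.44 for Itgb8 on the log2 scale. Leaving out 1 library kept the Itgb8 call in 17 of 17 fits, Itga8 in 10, Itgb1 in 6 and Itga6 in 4. Without mitochondrial genes, Itga6 and Itgb1 missed the threshold (edgeR adjusted p = 0.0624 and 0.0677). Reporter, depth and mitochondrial share differ between these groups too, and their part was not tested.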

How the results depend on the processing

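Counts of called genes (of 10) that moved by over 1.5 times are given by setting, and the cause was not tested. With library totals alone, Ai47 aSMCs had 3 higher than cortex, Ai14 aSMCs 0 lower and astrocytes 3 lower. Over all 14927 genes, those numbers were 2126, 113 and 2086. In that setting Ai47 aSMCs had 8 lower than Ai14 aSMCs and, against astrocytes, 3 higher and 3 lower. Over all genes, these were 6604, 1830 and 6351. The median of all genes was -2.595 against Ai14 aSMCs and -1.891 against astrocytes, so a shift of all genes lies under these counts. With the Ai47 columns averaged to 1 library, fewer genes were called against cortex, Ai14 aSMCs and astrocytes, among the 10 and over all genes. An arm of 1 library shows no spread of its own. The DESeq2 test gave 2 lower for Ai14 aSMCs against cortex (1600 of all 14927 genes) and 2 higher for Ai47 against Ai14 aSMCs (2555 of 14927). A fit of the 2 groups alone gave the same 2 counts (1541 of all 13571 genes and 2751 of 15120). For Ai14 aSMCs against astrocytes, the fit of 2 groups gave 0 higher and 0 lower (0 of all 12864 genes). Without mitochondrial genes, Ai47 against Ai14 aSMCs had 1 higher and 2 lower, beside 1687 and 1748 of all 15335 genes. Without cortex replicates 1 and 2, astrocytes had 3 lower than cortex and Ai47 aSMCs 1 lower than Ai14 aSMCs. Over all 15478 genes, those numbers were 2512 and 1619.

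Leaving out 1 library gave 5 to 5 higher and 2 to 3 lower for Ai47 aSMCs against cortex, 3 to 4 and 0 to 2 for Ai14 aSMCs against cortex, 0 to 1 and 3 to 6 for astrocytes against cortex, 0 to 2 and 1 to 4 for Ai47 against Ai14 aSMCs, 5 to 6 and 1 to 1 for Ai47 aSMCs against astrocytes, and 4 to 6 and 1 to 1 for Ai14 aSMCs against astrocytes.

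Same-numbered libraries did not deviate together (correlations from -0.0532 to 0.0278), so numbers were not taken as pairs. With the replicate block in 15 libraries, astrocytes had 0 higher and 3 lower than cortex, against 1 and 4 in those libraries without it. Over all 13410 genes, those numbers were 736 and 1984 with the block and 1721 and 2659 without it. Against astrocytes, Itga6 (0.609) and Itgb3 (-1.134) of Ai47 aSMCs changed sign with the block.

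Signs turned in uncalled or scaling-dependent log2 values. Against cortex, Itga5 in Ai47 aSMCs was -1.04 with library totals. Itgb5 in Ai47 aSMCs was 0.292 without mitochondrial genes, 0.074 with no filter, 0.057 with at least 1 CPM in 2 libraries, 0.027 in the 15 libraries without a block and 0.032 with the 2 groups alone. Itgb5 in Ai14 aSMCs was -0.048 without cortex replicates 1 and 2. Itgb1 in astrocytes was -0.073 with no filter, -0.079 with at least 1 CPM, -0.088 in the 15 libraries and -0.074 without cortex replicates 1 and 2. With library totals, Itgav was -0.774 between Ai47 and Ai14 aSMCs, and in Ai47 aSMCs against astrocytes Itgav was -0.611 and Itgb1 -0.664. Itgav of Ai14 aSMCs against astrocytes was -0.042 with DESeq2 size factors and -0.043 with the DESeq2 test. With 1 library left out, Itgb5 ran from -0.199 to 0.597 (Ai47, cortex), -2.702 to 2.266 (astrocyte, cortex), -0.472 to 0.091 (Ai47, Ai14), -2.209 to 2.759 (Ai47, astrocyte) and -1.97 to 2.997 (Ai14, astrocyte). Itgav ran from -0.843 to 1.079 (astrocyte, cortex) and -0.236 to 1.683 (Ai14, astrocyte), Itgb1 from -0.353 to 0.138 (astrocyte, cortex) and Itga6 from -0.958 to 2.142 (Ai47, astrocyte). Low counts limit Itgb8 in Ai47 aSMCs, the deepest libraries, and Itga5, Itga7, Itga8 and Itgb3 in astrocytes, which rest on 1 to 11 counts per group.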
